A study of Mus musculus with 6 samples.

Results

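Microglia, the resident macrophages of the brain, were followed in the dorsal hippocampus through 33 genes after knockdown of Snhg11, a long non-coding RNA. The 33 genes were listed by name from what is known of them, with no threshold on measured values. Earlier results of these data were known when they were listed. Of the 33, 16 were listed as genes of resting (homeostatic) microglia and 17 as genes of activated microglia. The listed genes are 33 of the 55401 genes counted and, since each passed the filter on low counts, 33 of the 19969 genes tested. The mice were WT, 4 months old and littermates of the Ts65Dn line, and each received 50 μg of antisense oligonucleotide (ASO) per hemisphere into the dorsal dentate gyrus (DG) of both sides, with tissue taken 3 days later. Control-ASO mice (3 samples) received a scrambled gapmer, and Snhg11-ASO mice (3 samples, genotype given as Snhg11 KD) received one directed at Snhg11, so both groups carried the injection and an oligonucleotide and no uninjected mice were compared. Total RNA of the whole dorsal hippocampus was sequenced after stranded library preparation. The injected DG was not separated from the rest of the tissue.

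Resting microglia survey the tissue with fine processes, and sense nucleotides through P2RY12 and P2RY13 and neuronal fractalkine through CX3CR1. Their survival depends on the colony-stimulating factor receptor CSF1R, and their identity on transcription factors such as SALL1, PU.1 (encoded by Spi1) and IRF8. In disease, injury and around dying cells, microglia lower many of these homeostatic genes and raise a set that includes Apoe, Lpl, Itgax, Clec7a, Spp1 and Gpnmb, part of which requires the lipid receptor TREM2 and its adaptor TYROBP.

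Between 28951250 and 34293344 read pairs were counted to genes in the Control-ASO libraries and between 38556524 and 43997537 in the Snhg11-ASO libraries. Levels are given in CPM, a gene's counts scaled to the size of its library over tested genes and adjusted by TMM factors of 0.982 to 1.02. The 10 neuronal markers summed to 4397 to 5293 CPM across the 6 libraries, and each of the 16 homeostatic genes was counted in every library. Snhg11 itself measured 551, 436 and 209 CPM in the 3 Control-ASO libraries against 139, 65.4 and 69.4 CPM in the 3 Snhg11-ASO libraries, which did not overlap (log2 fold change -2.13, adjusted p = 0.395 in edgeR and 6.2e-05 in DESeq2). Snhg11-ASO replicate 1 stood apart from every other library. It held 195.8 CPM summed over 5 neutrophil markers against 17.5 to 21.6 CPM elsewhere, and 388 CPM summed over 14 markers of border macrophages and monocytes against 97.4 to 124 CPM elsewhere. Results on the microglial genes are therefore given with and without it. Control-ASO replicate 1 was the lowest of the 6 libraries for 12 of the 17 activation genes.

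Across all libraries the activation genes were on balance higher after Snhg11-ASO. The direction of the homeostatic genes turned when Snhg11-ASO replicate 1 or Control-ASO replicate 2 was left out. Of the 17 activation genes, 16 had a positive log2 fold change, Apoe being the exception, with a median of 0.37, whereas 6 of the 16 homeostatic genes had a positive one, with a median of -0.10. Without Snhg11-ASO replicate 1 the medians were 0.63 and 0.25, with 12 of the 16 homeostatic genes positive. Without Control-ASO replicate 2 the medians were 0.80 and 0.16. The median over all genes tested was 0.0097. In bulk tissue, fewer cells of a type and less RNA per cell cannot be told apart, so these values describe RNA in the tissue.

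No member passed an adjusted p of 0.05 in edgeR's quasi-likelihood test, nor did any of the 19969 genes (0%). At an unadjusted p under 0.05 there were 7 of the 33 members (21.2%), all higher in Snhg11-ASO, namely Spi1 among the homeostatic genes and Spp1, Cd9, Clec7a, Itgax, Axl and Gpnmb among the activation genes. Over all genes tested 8.11% passed that limit, 3.68% as higher. The groups did not overlap for 7 members, all higher in Snhg11-ASO, with Cd68 in place of Gpnmb, where 15.4% of all genes did not overlap, 7.73% as higher. The count of 7 depends on scaling. With offsets for genomic span 3 members did not overlap, all higher (9.09%), where 6.55% of all genes did so as higher. With upper-quartile factors 4 did not overlap, for which no share of all genes is given. DESeq2 called 2 members as raised, Cd9 (adjusted p = 0.0058) and Spp1 (adjusted p = 0.0109), among the 1.29% of genes it called, 0.496% as higher. Over the 20 alternatives the adjusted p ran from 0.00582 to 0.951 for Cd9 and from 0.000342 to 0.979 for Spp1.

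**Figure D1:**
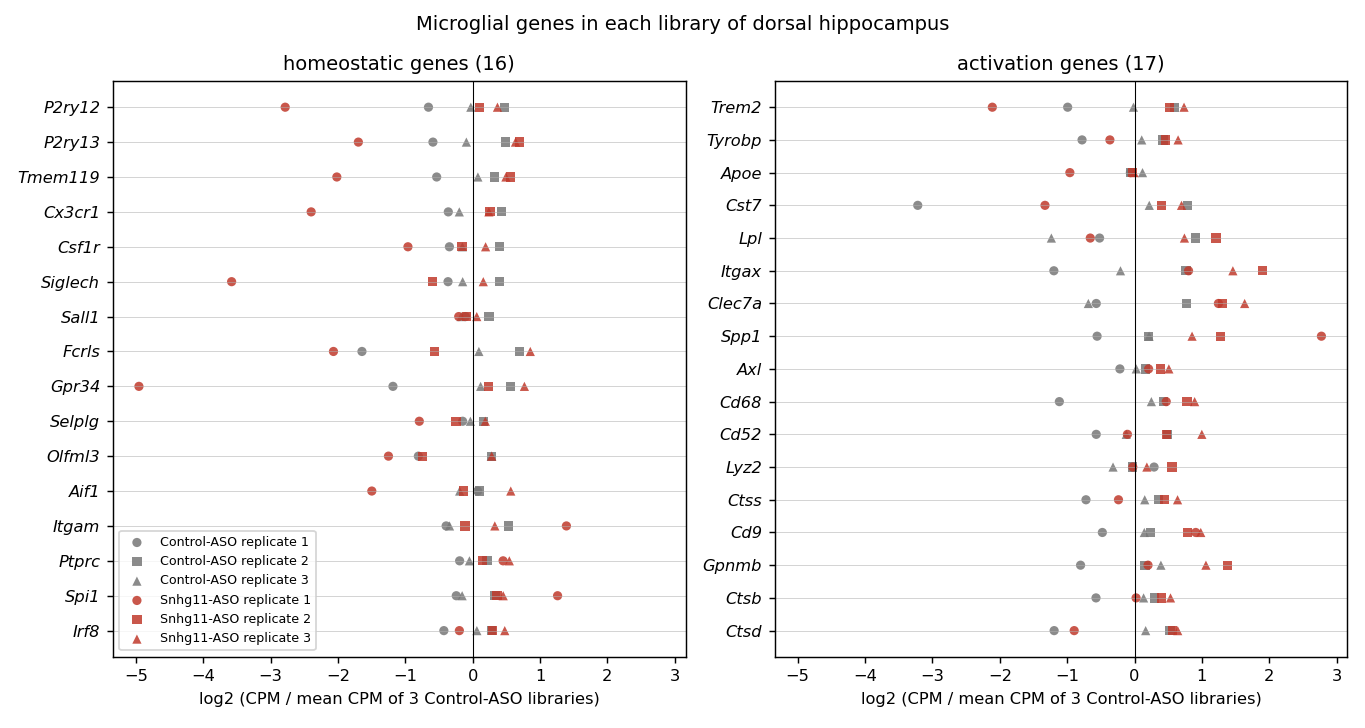
Level of each of the 33 genes in each of the 6 libraries, as log2 of its CPM over the mean CPM of the 3 Control-ASO libraries, with one point per library (grey, Control-ASO and red, Snhg11-ASO, where circle, square and triangle stand for replicates 1, 2 and 3). Snhg11-ASO replicate 1 is the lowest point for 12 of the 16 homeostatic genes, and Snhg11-ASO replicates 2 and 3 each lie above all Control-ASO libraries for 13 of the 17 activation genes. No share of all genes is given for these counts.

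Among the homeostatic genes the receptors that sense nucleotides, chemokines and lipids varied widely, with the lowest value of each in the same library. P2ry12 (ENSMUSG00000036353, chromosome 3, 59216272 to 59262871 on GRCm38) measured 23.8, 52 and 36.8 CPM in Control-ASO and 5.46, 40.2 and 48.5 CPM in Snhg11-ASO, where values stand here and throughout in the order of replicates 1, 2 and 3. Snhg11-ASO replicate 1 was thus at 14.5% of the Control-ASO mean, while replicates 2 and 3 averaged 118% of it and lay inside the control range. With all libraries the log2 fold change (with its standard error, SE) came to -0.26 (SE 0.69, unadjusted p = 0.72, edgeR), and without Snhg11-ASO replicate 1 to 0.24 (SE 0.30).

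Gpr34, a receptor for lysophosphatidylserine, was at 5.37, 18.0 and 13.2 CPM in the Control-ASO libraries and at 0.39, 14.3 and 20.8 CPM in the Snhg11-ASO libraries. The first of these rests on 15 read pairs in Snhg11-ASO replicate 1, against 158 to 907 in the others. This gave a log2 fold change of -0.04 (SE 1.04) and, without that library, of 0.52. Cx3cr1 was likewise lowest in Snhg11-ASO replicate 1, with 32.2, 55.8 and 36 CPM against 7.84, 49.4 and 48.8 CPM, and P2ry13, with 7.51, 15.8 and 10.6 CPM against 3.49, 18.4 and 17.6 CPM, lay above all controls in Snhg11-ASO replicates 2 and 3. Without Snhg11-ASO replicate 1, P2ry13 had a log2 fold change of 0.67 (unadjusted p = 0.052, edgeR). P2ry12 and P2ry13 lie within Med12l, and Gpr34 within Cask, on the opposite strand. Up to 28.5%, 40.1% and 71.2% of the pairs over P2ry12, P2ry13 and Gpr34 fell on that opposite strand in a library and were not counted to them.

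Surface and secreted proteins that mark microglia against other brain cells were also lowest in Snhg11-ASO replicate 1, and differed from each other in Snhg11-ASO replicate 2. Tmem119 was at 13.2, 24.0 and 20.2 CPM in Control-ASO and at 4.72, 28.2 and 26.9 CPM in Snhg11-ASO, so 2 of the 3 Snhg11-ASO libraries lay above all controls and the remaining one far below. Siglech, a sialic acid-binding receptor, was at 11.2, 19.1 and 13 CPM against 1.21, 9.55 and 16.1 CPM, and had the lowest log2 fold change of the 33 genes at -0.69 (SE 0.74, unadjusted p = 0.388, edgeR), or -0.17 without Snhg11-ASO replicate 1. Fcrls, an Fc receptor-like protein of microglia, ranged from 7.14 to 36 CPM among the controls alone, a 5.04-fold spread within 1 group, and from 5.32 to 40.4 CPM in Snhg11-ASO. Olfml3, a secreted protein, and Selplg, the ligand of P-selectin, were at 42.0% and 57.7% of the Control-ASO mean in Snhg11-ASO replicate 1. In Snhg11-ASO replicate 2 Siglech and Selplg lay below all controls and Tmem119, with a log2 fold change of 0.53 without replicate 1, above them.

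Csf1r, the receptor for CSF1 and IL-34, was less low in that library than the nucleotide receptors. It was at 82.1, 137 and 93.8 CPM in Control-ASO and at 53.6, 93.4 and 119 CPM in Snhg11-ASO, so Snhg11-ASO replicate 1 held 51.4% of the Control-ASO mean. Aif1, which encodes the widely used marker IBA1, was at 9.04, 9.21 and 7.51 CPM against 3.04, 7.80 and 12.7 CPM, with the lowest and the highest library both in Snhg11-ASO. The log2 fold change of Aif1 was -0.13 (SE 0.46) and 0.26 without Snhg11-ASO replicate 1, at unadjusted p of 0.787 and 0.287 in edgeR.

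Itgam and Ptprc went the other way in Snhg11-ASO replicate 1 and lay above all controls. Csf1r, Aif1 and Selplg lay below all controls there. Cd52 of leukocytes and Lyz2 of myeloid cells lay within the control range in that library. Itgam, which encodes CD11b, was at 5.30, 10.1 and 5.49 CPM in Control-ASO and at 18.3, 6.44 and 8.75 CPM in Snhg11-ASO. Its level in Snhg11-ASO replicate 1 was 262% of the Control-ASO mean, and its log2 fold change dropped from 0.68 to 0.12 when that library was left out. Ptprc, which encodes CD45, was at 11.1, 14.7 and 12.3 CPM against 17.3, 14.1 and 18.5 CPM (log2 fold change 0.39, SE 0.17, unadjusted p = 0.0506, edgeR), and 0.36 without it.

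The 3 transcription factors differed from each other. Spi1 was at 2.52, 3.75 and 2.67 CPM in Control-ASO and at 7.13, 3.83 and 4.08 CPM in Snhg11-ASO, the only homeostatic gene whose groups did not overlap. The nearest libraries were almost level, and with offsets for genomic span the groups overlapped for every homeostatic gene. Spi1 differed by a log2 fold change of 0.75 (SE 0.31), at an unadjusted p of 0.0475 and an adjusted p of 0.607 in edgeR, and of 0.41 (unadjusted p = 0.114, edgeR) without Snhg11-ASO replicate 1. With the replicate block its unadjusted p was 0.0798. Sall1, needed for microglial identity and also made by other cells of the brain, had the smallest SE of the homeostatic genes (0.16), with 14.6, 18.6 and 14 CPM against 13.6, 14.8 and 16.4 CPM. Irf8 was at 5.03, 8.20 and 7.07 CPM against 5.90, 8.28 and 9.41 CPM. Sall1 was lowest in Snhg11-ASO replicate 1, as the receptors were, and its log2 fold change was -0.07, while that of Irf8 was 0.22 (SE 0.25).

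Counted over the 16 homeostatic genes, Snhg11-ASO replicate 1 was below all Control-ASO libraries for 12 and above all of them for 3 (Itgam, Ptprc and Spi1). Snhg11-ASO replicate 2 was below all controls for 2 genes and above for 4, and Snhg11-ASO replicate 3 was below for 0 and above for 10. No share of all genes is given for these counts by library, so they are descriptions only. Without Snhg11-ASO replicate 1 the median of the homeostatic genes turned from -0.10 to 0.25, with 12 of 16 positive, 4 not overlapping (25%, against 14.7% of all genes as higher and 28.3% in either direction) and 0 at an unadjusted p under 0.05. The median was 0.16 without Control-ASO replicate 2 and -0.28 with the replicate number as a block.

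Among the activation genes, the secreted protein osteopontin, encoded by Spp1, had the largest log2 fold change. Spp1 (ENSMUSG00000029304, chromosome 5, 104435118 to 104441050) was at 8.97, 15.3 and 15.3 CPM in Control-ASO and at 90.2, 31.8 and 23.8 CPM in Snhg11-ASO. All 3 Snhg11-ASO libraries lay above all controls, and replicate 1, the library lowest for most homeostatic genes, was highest here at 684% of the Control-ASO mean. The groups differed by a log2 fold change of 1.88 (SE 0.52), at an unadjusted p of 0.00838 and an adjusted p of 0.497 in edgeR, and without replicate 1 by 1.07 (SE 0.25, unadjusted p = 0.00413, edgeR).

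Cd9, a tetraspanin made by activated microglia and also by oligodendrocytes and astrocytes, had the smallest p of the 33 genes. It was at 24.0, 39.4 and 37.0 CPM in Control-ASO, a mean of 33.5 ± 8.26 (SD, n = 3), and at 62.8, 57.5 and 66.2 CPM in Snhg11-ASO, a mean of 62.2 ± 4.35 (SD, n = 3). The 3 Snhg11-ASO libraries were close together and above all controls. Cd9 gave a log2 fold change of 0.89 (SE 0.19), at an unadjusted p of 0.00212 and an adjusted p of 0.415 in edgeR, and 0.89 again without Snhg11-ASO replicate 1. For this gene, as for the other non-overlapping ones, the two-sided exact permutation test gave p = 0.1, the smallest that 3 samples against 3 allow.

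Clec7a and Itgax, which encode the glucan receptor dectin-1 and the integrin CD11c and are hardly made by resting microglia, were at the bottom of the 33 genes in level per exonic kilobase in Control-ASO, at 0.34 and 0.18 CPM per kb. Clec7a had 18, 52 and 19 read pairs in the controls against 82, 94 and 123 after Snhg11-ASO, or 0.61, 1.55 and 0.56 CPM against 2.15, 2.25 and 2.82 CPM. The resulting log2 fold change of 1.40 (SE 0.43) had an unadjusted p of 0.0135 and an adjusted p of 0.528 in edgeR, and it came to 1.47 without Snhg11-ASO replicate 1. Itgax had 11, 49 and 25 read pairs in the controls against 57, 134 and 103 after Snhg11-ASO, or 0.37, 1.46 and 0.74 CPM against 1.49, 3.21 and 2.36 CPM (log2 fold change 1.45, SE 0.52, unadjusted p = 0.0268, and 1.68 without Snhg11-ASO replicate 1). For Itgax the lowest Snhg11-ASO library and the highest control were nearly level.

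Axl, a receptor tyrosine kinase that binds apoptotic cells through bridging proteins, was at 40.1, 52.3 and 47.4 CPM in Control-ASO and at 53.8, 60.9 and 66.3 CPM in Snhg11-ASO. The groups did not overlap, although the nearest libraries were almost level. The step was small (log2 fold change 0.37, SE 0.13, unadjusted p = 0.0252, edgeR, and 0.45 without Snhg11-ASO replicate 1). Gpnmb, a glycoprotein of lysosomes and phagosomes, was at 7.55, 14.7 and 17.3 CPM against 15.1, 34.1 and 27.4 CPM. Here Snhg11-ASO replicate 1 lay within the controls and the other 2 Snhg11-ASO libraries above them, so that the log2 fold change came to 0.96 (SE 0.38, unadjusted p = 0.041, edgeR) with it and to 1.22 (unadjusted p = 0.00699) without it. A single alternative called Gpnmb, DESeq2 on counts of both strands without that library (adjusted p = 0.0119, against 0.595 in edgeR with all libraries).

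**Figure D2:**
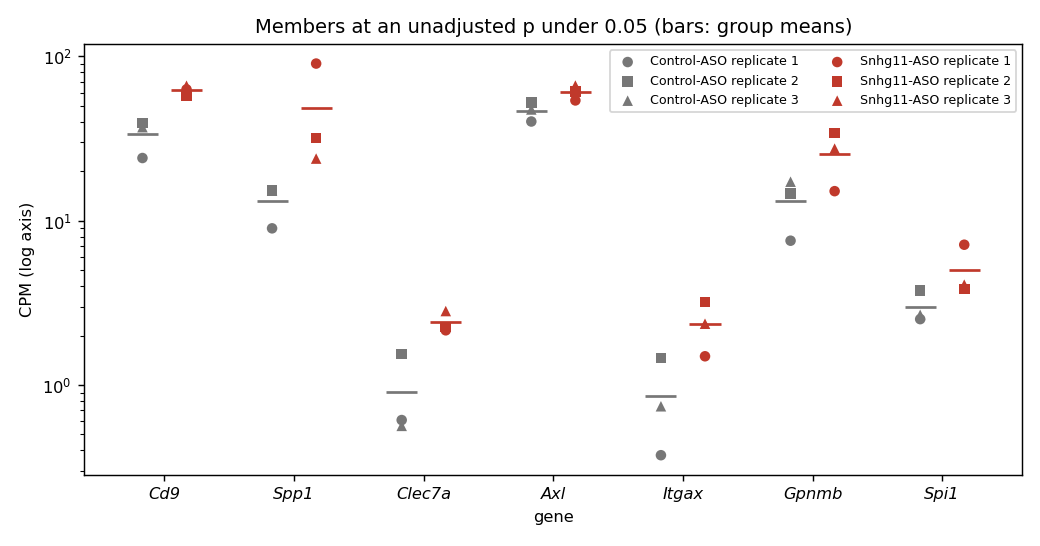
CPM, on a log axis, of the 7 members at an unadjusted p under 0.05 in order of p, with one point per library (shapes give the replicate number) and a bar at each group mean (n = 3). The groups are apart for all but Gpnmb, though the nearest points are almost level for Itgax, Axl and Spi1. The highest Spp1 and Spi1 points both belong to Snhg11-ASO replicate 1.

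The sequences upstream of members with a low p were read from RefSeq, which in the table used here covered 24 of the 33 genes, from 250 bases before to 50 after the annotated start. They are printed on the strand of the gene for the 5 activation genes with the smallest p among those whose window held a searched motif. Capitals mark every match to GAGGAAGT (the core bound by PU.1), GGAANNGAA (a composite of PU.1 and IRF), GAAANNGAA (one arm of an IRF element) or TGANTCA (AP-1), on either strand. Clec7a has a second annotated start close by, whose window is not printed.
Spp1 promoter, GRCm38.p6, chr5:104434861-104435160, plus strand: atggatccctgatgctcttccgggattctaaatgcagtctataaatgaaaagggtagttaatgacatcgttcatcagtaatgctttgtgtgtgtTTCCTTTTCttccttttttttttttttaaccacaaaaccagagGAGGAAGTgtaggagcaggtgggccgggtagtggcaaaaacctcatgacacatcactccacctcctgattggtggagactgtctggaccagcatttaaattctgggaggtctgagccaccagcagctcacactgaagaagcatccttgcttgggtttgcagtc
Clec7a promoter, GRCm38.p6, chr6:129472730-129473029, minus strand: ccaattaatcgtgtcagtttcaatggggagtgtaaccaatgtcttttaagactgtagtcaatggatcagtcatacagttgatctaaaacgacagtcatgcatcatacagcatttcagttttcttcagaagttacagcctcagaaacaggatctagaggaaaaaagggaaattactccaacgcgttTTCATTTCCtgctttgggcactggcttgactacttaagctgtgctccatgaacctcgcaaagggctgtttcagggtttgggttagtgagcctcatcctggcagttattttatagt
Itgax promoter, GRCm38.p6, chr7:128129300-128129599, plus strand: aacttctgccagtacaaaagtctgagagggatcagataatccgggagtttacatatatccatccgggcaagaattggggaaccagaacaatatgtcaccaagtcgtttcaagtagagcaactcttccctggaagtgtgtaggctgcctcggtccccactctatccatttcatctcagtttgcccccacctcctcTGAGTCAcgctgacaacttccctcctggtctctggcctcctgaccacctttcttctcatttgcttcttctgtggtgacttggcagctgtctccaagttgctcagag
Cd9 promoter, GRCm38.p6, chr6:125494711-125495010, minus strand: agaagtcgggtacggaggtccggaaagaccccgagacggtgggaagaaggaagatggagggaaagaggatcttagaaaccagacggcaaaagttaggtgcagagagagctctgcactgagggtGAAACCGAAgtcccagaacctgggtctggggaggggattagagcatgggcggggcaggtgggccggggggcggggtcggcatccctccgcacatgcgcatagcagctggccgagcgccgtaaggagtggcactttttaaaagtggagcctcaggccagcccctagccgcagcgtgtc
Gpnmb promoter, GRCm38.p6, chr6:49036268-49036567, plus strand: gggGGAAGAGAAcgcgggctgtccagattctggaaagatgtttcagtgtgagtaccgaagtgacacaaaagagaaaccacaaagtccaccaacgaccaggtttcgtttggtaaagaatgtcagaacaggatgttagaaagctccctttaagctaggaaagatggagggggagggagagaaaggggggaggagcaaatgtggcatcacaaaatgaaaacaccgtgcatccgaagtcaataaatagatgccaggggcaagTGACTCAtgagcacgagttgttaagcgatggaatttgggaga

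The match in Spp1 that lies closer to the start is the PU.1 core, and the other is the IRF form read on the opposite strand. Clec7a holds the composite form on the opposite strand, Itgax the AP-1 form, Cd9 the IRF form, and Gpnmb both the composite and the AP-1 form. The window of Axl held none of the 4. Over the 24 genes the PU.1 core was found in 2 (Spp1 and Ctss), where 3.20% of 32851 promoters held it, and the composite in 4 (Clec7a, Cd68, Ctss and Gpnmb), where 8.24% did. The IRF form was in 5 genes against 8.56% of promoters, and the AP-1 form in 5 (Trem2, Cst7, Itgax, Cd68 and Gpnmb) against 7.81%. These counts are of genes, some with several windows, while the percentages are of windows. Of the 32 windows of these genes, the PU.1 core was in 2 and the composite, IRF and AP-1 forms were each in 5. Of the 11 homeostatic genes with a sequence only Aif1 held any of the 4, with the IRF form. A match is a description of letters, and windows of a gene with several starts overlap in some genes, such as Clec7a, and not in others, such as Spp1.

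The TREM2 axis itself was not higher in every library. Trem2, the lipid receptor, was at 6.83, 20.5 and 13.5 CPM in Control-ASO and at 3.15, 19.5 and 22.6 CPM in Snhg11-ASO, so that it ran with the homeostatic receptors in replicate 1, at 23.1% of the Control-ASO mean. Tyrobp, its adaptor, was at 11.4, 26.3 and 21.1 CPM against 15.2, 26.9 and 30.7 CPM. The log2 fold changes were 0.15 (SE 0.69) and 0.31 (SE 0.36), and without Snhg11-ASO replicate 1 they were 0.63 (SE 0.39) and 0.55 (SE 0.31). In that setting the groups did not overlap for Tyrobp, at an unadjusted p of 0.122 in edgeR, and overlapped for Trem2.

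The lipid genes were Apoe and Lpl, which encode an apolipoprotein made chiefly by astrocytes and a lipoprotein lipase. Apoe had the highest level of the 33 genes per exonic kilobase (279 CPM per kb in Control-ASO) and was at 571, 570 and 647 CPM in Control-ASO and at 306, 583 and 593 CPM in Snhg11-ASO. Snhg11-ASO replicate 1 alone lay below the controls, at 51.4% of their mean, and without it the log2 fold change went from -0.27 to -0.02. Lpl was at 23.7, 63.7 and 14.4 CPM against 21.5, 78.5 and 56.7 CPM, with a 4.42-fold spread among the controls, and its log2 fold change was 0.62 (SE 0.63) with all libraries and 0.99 without Snhg11-ASO replicate 1.

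Of the lysosomal genes, Cd68, a membrane glycoprotein of the phagocytic compartment, was at 7.0, 20.5 and 18.1 CPM in Control-ASO and at 21, 26 and 28.2 CPM in Snhg11-ASO. The groups did not overlap, although the nearest libraries were almost level, and the log2 fold change came to 0.72 (SE 0.37, unadjusted p = 0.0909, edgeR), to 0.83 without Snhg11-ASO replicate 1 and to 0.84 with the replicate block (unadjusted p = 0.0196). The cathepsins were high throughout. Ctsb was at 305, 557 and 497 CPM against 460, 599 and 656 CPM, Ctsd at 104, 344 and 268 CPM against 128, 352 and 372 CPM, and Ctss at 46.7, 98.8 and 85.6 CPM against 65.3, 105 and 120 CPM. In each of the 3 cathepsins Control-ASO replicate 1 was the lowest library and Snhg11-ASO replicates 2 and 3 lay above all controls, with log2 fold changes of 0.34, 0.25 and 0.33 for Ctsb, Ctsd and Ctss (unadjusted p = 0.207, 0.642 and 0.338, edgeR). They were 0.47, 0.60 and 0.54 when Snhg11-ASO replicate 1 was left out. Each was higher in Snhg11-ASO between samples of the same number, a pairing that the labels do not give. With the replicate block the unadjusted p was 0.0265, 0.0595 and 0.0267 (edgeR). The block was taken from these same values, so its p-values, that of Cd68 included, are descriptions only.

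Cst7, the cathepsin inhibitor cystatin F, had 5, 92 and 62 read pairs in the controls against 24, 87 and 112 after Snhg11-ASO, with the lowest count in Control-ASO replicate 1, and a log2 fold change of 0.15 (SE 0.86), or 0.54 without Snhg11-ASO replicate 1. In 1 library 76.2% of the pairs over it fell on the opposite strand, where no gene is annotated. Cd52, a short surface glycopeptide of leukocytes, was at 2.55, 5.32 and 3.47 CPM against 3.51, 5.26 and 7.56 CPM (log2 fold change 0.53, SE 0.37, and 0.76 without Snhg11-ASO replicate 1). Lyz2, lysozyme of myeloid cells, was at 24.5, 19.6 and 16.1 CPM against 19.7, 29.5 and 22.8 CPM (log2 fold change 0.26, SE 0.21, and 0.38 without it). Its near copy Lyz1 was counted 1 to 5 times a library, and pairs that map to both copies are left out of the counts.

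Counted over the 17 activation genes, Snhg11-ASO replicate 1 was above all Control-ASO libraries for 6 (Itgax, Clec7a, Spp1, Axl, Cd68 and Cd9) and below all for 2 (Trem2 and Apoe). Snhg11-ASO replicates 2 and 3 were each above for 13 and below for 0. These counts by library, too, have no share of all genes beside them and are descriptions only. Without Snhg11-ASO replicate 1 the median log2 fold change went from 0.37 to 0.63, with 6 genes at an unadjusted p under 0.05, all higher (35.3%, where 9.94% of all genes passed that limit and 4.41% as higher) and 11 not overlapping (64.7%, against 14.7% as higher). Without Control-ASO replicate 1, which was low for most of them, the median was 0.30 and 3 genes passed that limit (17.6%, against 4.36% of all genes and 1.77% as higher), and with the replicate block the median was 0.45 and 9 genes passed it (52.9%, against 8.59% and 3.99% as higher). The block was taken from these same values, so its count is a description only.

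**Figure D3:**
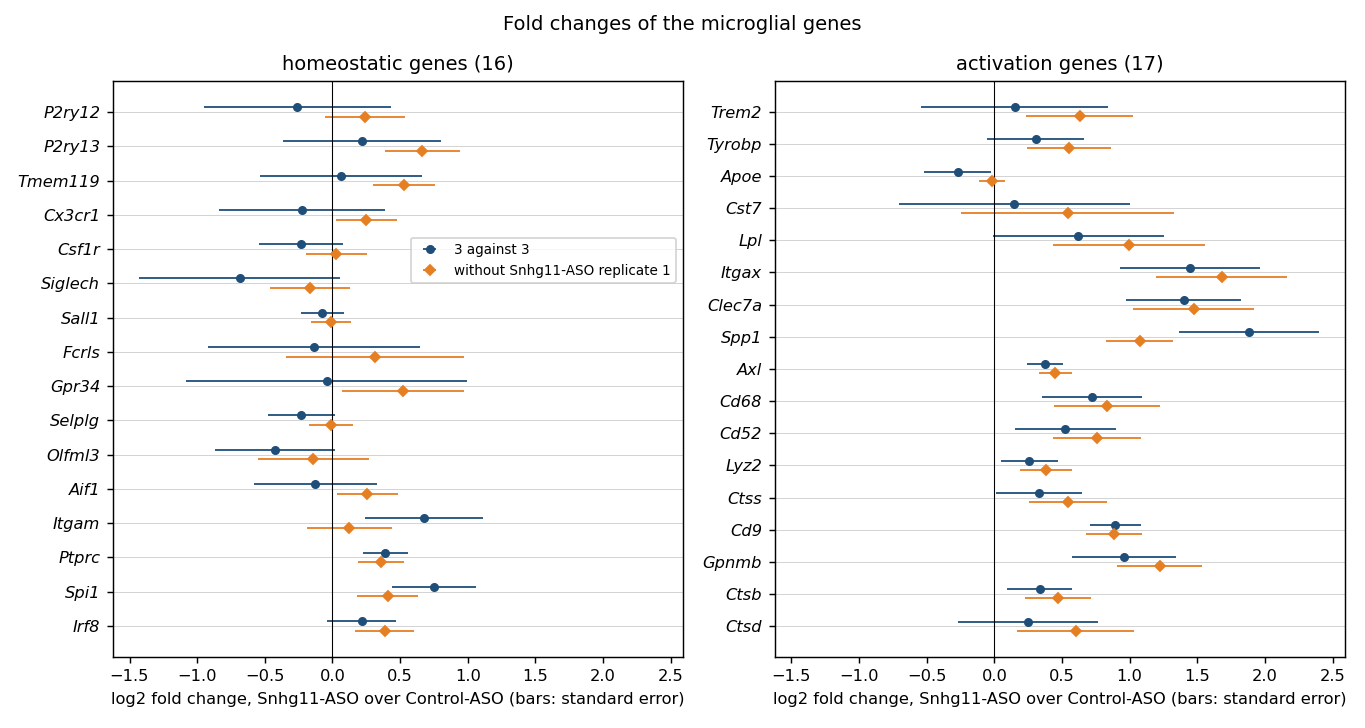
Log2 fold change of Snhg11-ASO over Control-ASO for each gene with its standard error, from all 6 libraries (blue circles) and without Snhg11-ASO replicate 1 (orange diamonds). The homeostatic receptors move to the right when that library is left out, Itgam, Spi1 and Spp1 move to the left, and Cd9 stays at 0.89.

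The cells that make a gene were set beside its difference. Of the activation genes, 6 are widely made by other brain cells (Apoe, Lpl, Axl, Cd9, Ctsb and Ctsd), and their median log2 fold change was 0.35, with 1 negative. The other 11 are mostly of myeloid cells, with a median of 0.53 and 11 positive. Summed over these 11 the level was 117, 227 and 193 CPM in Control-ASO and 238, 285 and 291 CPM in Snhg11-ASO, where 90.2 CPM of the 238 CPM in Snhg11-ASO replicate 1 were Spp1. Read as the median deviation of the 11 genes from their Control-ASO mean (log2 of CPM + 2), the groups overlapped, with -0.60, 0.37 and 0.16 in the controls against -0.0054, 0.56 and 0.74 after Snhg11-ASO. The sum over the 16 homeostatic genes was 257, 466 and 338 CPM against 166, 350 and 452 CPM, which overlapped.

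The distance between both sets was read within each library, as the median over the set of log2 (CPM + 2) less the Control-ASO mean of each gene. For the homeostatic genes the controls gave -0.30, 0.36 and -0.03 and the Snhg11-ASO libraries -1.04, 0.05 and 0.36. For the activation genes the controls gave -0.44, 0.34 and 0.16 and the Snhg11-ASO libraries -0.01, 0.56 and 0.74. Both sets thus went up and down together among the controls, where replicate 1 was low and replicate 2 high for each. The activation median less the homeostatic median was -0.13, -0.02 and 0.20 in the controls and 1.04, 0.52 and 0.38 after Snhg11-ASO, a mean difference of 0.63 against a spread within groups of 0.27 (SD). No test is given, since the genes were listed with earlier results of these data known.

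**Figure D4:**
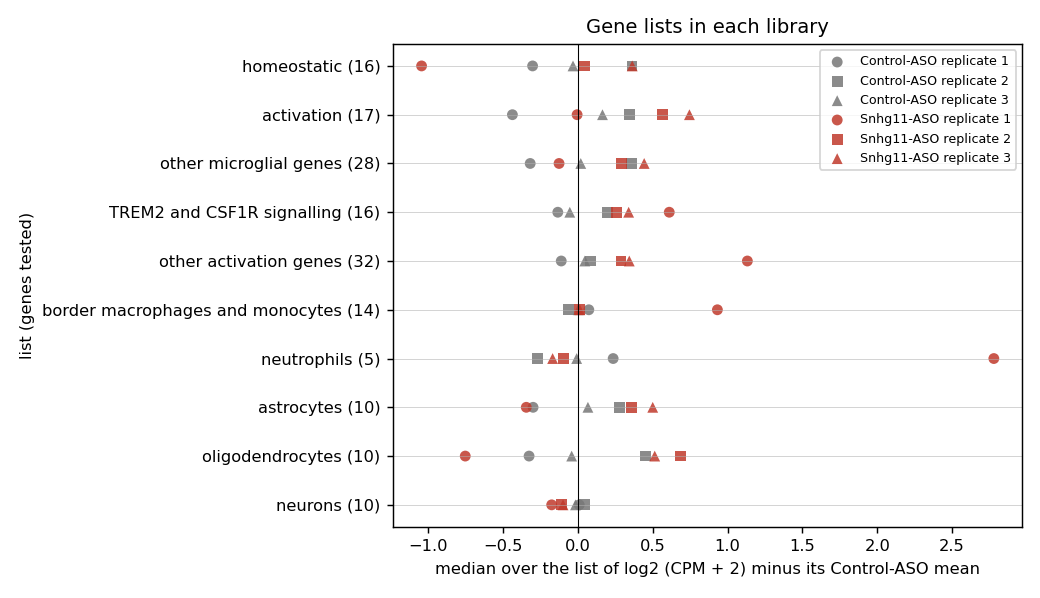
Median over each gene list of log2 (CPM + 2) less the gene's Control-ASO mean, with one point per library (grey, Control-ASO and red, Snhg11-ASO, with shapes for replicates 1, 2 and 3) and the number of genes tested in brackets. Snhg11-ASO replicate 1 is at -1.04 for the homeostatic genes, at 0.93 for border macrophages and monocytes and at 2.78 for neutrophils, while Snhg11-ASO replicates 2 and 3 lie beside the controls for the last 2 lists.

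Further genes of the same pathways were taken from lists of their own. These lists, like the members, were chosen with earlier results of these data known, so their shares are descriptions only. Of 28 other microglial genes, 4 were higher at an unadjusted p under 0.05 (14.3%, against 3.68% of all genes) and 0 lower, with a median of 0.30, led by Cd53 (a tetraspanin of leukocytes, 6.80, 11.6 and 9.62 CPM against 21.3, 11.4 and 14.4 CPM), Fcer1g (the common Fc receptor chain) and Runx1. Their summed level was 548, 969 and 817 CPM against 687, 979 and 1129 CPM, with the lowest value again in Control-ASO replicate 1. Without Snhg11-ASO replicate 1 their median was 0.35 with 3 higher at that limit, and without Control-ASO replicate 1 it was 0.083 with 0 at the limit and 16 of 28 positive.

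All 16 genes of signalling below TREM2 and CSF1R had a positive log2 fold change, with a median of 0.52 and 6 at an unadjusted p under 0.05 (37.5%, against 3.68% of all genes as higher). Snhg11-ASO replicate 1 was the highest library for 12 of them, and without it all 16 were positive with a median of 0.37 and 4 at that limit. Without Control-ASO replicate 1 there were 2 at the limit, and with replicates 2 and 3 of both groups the median was 0.26 with 15 of 16 positive. Pik3ap1, an adaptor of PI3 kinase, was at 6.39, 10.1 and 9.77 CPM against 22.6, 12.6 and 14.1 CPM, and Vav1, a guanine nucleotide exchange factor, at 5.78, 7.94 and 5.70 CPM against 17.7, 9.45 and 9.41 CPM, both highest in Snhg11-ASO replicate 1, without which their log2 fold changes went from 0.90 and 0.91 to 0.61 and 0.54.

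Among 8 ligands and upstream cytokines, Csf1, a ligand of CSF1R, was at 22.7, 27.5 and 24.9 CPM in Control-ASO and at 60.7, 39.9 and 32.2 CPM in Snhg11-ASO (log2 fold change 0.82, SE 0.23, unadjusted p = 0.00954, edgeR, and 0.53 without Snhg11-ASO replicate 1). Its receptor Csf1r had a log2 fold change of -0.23. Pros1, a bridging protein that MERTK and other receptors of the AXL family bind, was at 13.6, 24.9 and 21.3 CPM against 45.6, 25.1 and 34.1 CPM (log2 fold change 0.81, SE 0.29, unadjusted p = 0.0249, edgeR, and 0.57 without Snhg11-ASO replicate 1). Tgfb1, which sustains the resting state, was at 1.36, 1.90 and 1.48 CPM against 3.17, 2.06 and 2.11 CPM (unadjusted p = 0.0597, edgeR), with a log2 fold change of 0.63, or 0.39 without Snhg11-ASO replicate 1.

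Of 32 other genes of activated microglia, 13 were higher (40.6%, against 3.68% of all genes) and 2 lower at an unadjusted p under 0.05, with a median of 0.91, and 0.53 with 11 higher and 2 lower without Snhg11-ASO replicate 1. When Control-ASO replicate 1 was left out instead, 6 were higher and 2 lower, and with replicates 2 and 3 of both groups the median was 0.38. DESeq2 called 5 of them, all higher, where it called 0.496% of all genes as higher. Lgals3, which encodes galectin-3, was at 1.70, 4.93 and 3.59 CPM in Control-ASO and at 22.9, 10.3 and 10.7 CPM in Snhg11-ASO (log2 fold change 2.10, SE 0.47, and 1.62 without Snhg11-ASO replicate 1), and Tlr2, a receptor for bacterial lipoproteins, at 3.88, 4.10 and 3.30 CPM against 11, 9.0 and 7.19 CPM (log2 fold change 1.27, SE 0.21, and 1.11 without it). The lipid droplet protein Plin2, the inhibitory receptor Lilrb4a and the chemokine Ccl2 were the others, each highest in Snhg11-ASO replicate 1 (32.3, 14.3 and 16.2 CPM) and above all controls in the other 2 libraries. In edgeR the adjusted p of these 5 genes was 0.308 to 0.507.

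Markers of other cells moved with some of these values. Of 14 tested markers of border macrophages and monocytes, 13 had a positive log2 fold change, with a median of 1.10, which was 0.19 without Snhg11-ASO replicate 1, where 12 of the 14 were above all controls. Without Snhg11-ASO replicate 1, 9 of the 14 were positive and 5 negative. In Snhg11-ASO replicates 2 and 3, 4 each lay above all controls, and 2 and 1 lay below them. Ly6c2 of monocytes, the marker that DESeq2 called, was above all controls in each Snhg11-ASO library, at 0.31, 0.54 and 0.56 CPM against 2.89, 1.60 and 1.79 CPM (adjusted p = 0.00089 in DESeq2 and 0.308 in edgeR, at most 0.951 over the alternatives). Of 13 neutrophil markers 5 were tested, with a median of 2.93 and of -0.91 without Snhg11-ASO replicate 1, and of 14 lymphocyte markers 1 was tested. The part of these cells in the values of Itgam, Spi1, Ptprc, Spp1 and the signalling genes was not tested.

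Markers of brain cells that also make some members were read in the same way. The 10 astrocyte markers had a median of 0.22, 3 of them being higher at an unadjusted p under 0.05 (30%, against 3.68% of all genes as higher). The groups did not overlap for 4 of the 10, 3 as higher and 1 as lower, where 15.4% of all genes did not overlap. Serpina3n, a protease inhibitor of reactive astrocytes, was called by DESeq2 at 68.9, 183 and 137 CPM against 445, 259 and 287 CPM (adjusted p = 0.0189, and 0.492 in edgeR, at most 0.979 over the alternatives). The 10 oligodendrocyte markers had a median of 0.27, with summed levels of 1654, 3041 and 2041 CPM in Control-ASO and 1711, 3750 and 2978 CPM in Snhg11-ASO. By that sum Control-ASO replicate 1 was lowest, but by gene Snhg11-ASO replicate 1 lay below all controls for 7 of the 10. The median deviation of the 10 genes from their Control-ASO mean (log2 of CPM + 2) was -0.33 in Control-ASO replicate 1. In Snhg11-ASO replicate 1 it was -0.75, the lowest of the 6 libraries. When Snhg11-ASO replicate 1 was left out, the values of these markers moved up, as did those of both the homeostatic and the activation genes. The medians were then 0.59 for oligodendrocytes, with 6 of 10 higher at an unadjusted p under 0.05 (60%, against 4.41% of all genes) and 7 not overlapping, all higher (70%, against 14.7%). For astrocytes the median was 0.41, with 5 of 10 higher at that limit (50%, against 4.41% of all genes). Without Control-ASO replicate 1 the medians were 0.082 and 0.058. The 10 neuronal markers had a median of -0.13, with Syt1 and Tubb3 lower at an unadjusted p under 0.05, where 8.11% of all genes passed in either direction. The 10 endothelial markers had a median of 0.18. The choroid plexus markers summed to 42.4 to 1976 CPM among the controls and 75.5 to 1344 CPM in Snhg11-ASO, with 10 of 10 lower, a median of -0.93, and of -2.49 without Snhg11-ASO replicate 1. Of 13 proliferation genes 1 (Pcna) was higher at that limit (7.69%, against 3.68% of all genes), with a median over the list of 0.12. Without Snhg11-ASO replicate 1 the median was 0.37, with 4 higher at the limit (30.8%, against 4.41%) and 8 not overlapping as higher (61.5%, against 14.7%). The part of these cells in the values of Cd9, Axl, Apoe, Ctsb and Ctsd was not tested.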

How the data were processed

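Libraries from 3 Control-ASO and 3 Snhg11-ASO mice were grouped by their titles. The authors aligned reads to GRCm38 (mm10) with STAR 2.5.2a and deposited raw counts of read pairs per gene, without normalization or pooling. Counts on the reverse strand were used, as the library kit predicts (96.2% to 96.8% of strand-assigned pairs). Summary lines that name no gene (43.5% to 51.4%) were left out. Pairs that map to several places or genes are not counted, which undercounts near copies and overlapping genes. GENCODE M21 matched 55141 of 55401 identifiers.

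Genes were filtered with filterByExpr (minimum count 10), scaled by TMM and compared with edgeR's quasi-likelihood test (R 4.3.3, edgeR 4.0.16) with Benjamini-Hochberg adjustment at 0.05 over all genes tested. Standard errors were derived from the F statistic. DESeq2 1.42.0 was an alternative, among 20 in all. The methods were tested on simulated counts. Nothing in the labels says that samples of a group came from separate litters or days, so p-values measure the spread between these samples. Intervals of single counts would cover counting error only.

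The members and lists were chosen with earlier results of these data known. From the other lists, the text names up to 3 genes with the smallest p and those that DESeq2 called, except that 1 of these results is not reported here. Same-numbered samples deviated together (r = 0.297, 0.179 and 0.103, all over 0.1). Control-ASO replicate 2 with Snhg11-ASO replicate 3 reached r = 0.188, so only the samples numbered 1 stood out as a pair. The pairing by number was taken from the values and not from the labels. A fit with the replicate number as a block was an alternative. A comparison of replicates 2 and 3 of both groups was a further alternative, since the deposited tables of the 2 libraries numbered 1 are named in another style.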

Additional observations from a re-analysis of the deposited data

How the results depend on the processing

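Over 20 alternatives, 20 of the 33 genes kept the sign of their log2 fold change and 13 did not in at least 1. The cause of each change was not tested. edgeR called 0 members (0% of all genes) and DESeq2 2 (1.29% of all genes). DESeq2 on counts of both strands called 3, 2 and 1 without Snhg11-ASO replicates 1, 2 and 3, for which no share of all genes is given. Leaving out each replicate in turn, the members at an unadjusted p under 0.05 in edgeR numbered 3 to 9. The 3 were without Control-ASO replicate 1 (4.36% of all genes), and the 9 without Control-ASO replicate 2, for which no share is given. Members whose groups do not overlap numbered 7 to 15, the 15 without Snhg11-ASO replicate 1 (28.3% of all genes, 14.7% as higher). The homeostatic median ran from -0.50 to 0.25 and the activation median from 0.29 to 0.80. The non-overlapping members were 4 with upper-quartile factors and 4 with no filter, for which no share of all genes is given. They were 3 with offsets for genomic span (6.55% of all genes higher) and 3 with these and the block (no share of all genes given). They were 16 with replicates 2 and 3 of both groups (20.2% of all genes higher) and 15 with DESeq2 on both strands without Snhg11-ASO replicate 1 (no share of all genes given), both of which compare fewer samples. In those 2 settings the homeostatic median was 0.047 and 0.26, and the activation median exceeded the homeostatic one by 0.29 in the first. Snhg11 passed the threshold in DESeq2 (-2.12) and in DESeq2 on both strands without Snhg11-ASO replicates 1, 2 and 3 (-2.55, -1.96 and -1.99).

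The replicate block pairs same-numbered samples, a pairing taken from these same values. With it the members at an unadjusted p under 0.05 went from 7 to 9, where 8.59% of all genes passed (edgeR). Cd68, Ctsb and Ctss came in and Spi1 dropped out. The homeostatic median was -0.28, and P2ry13, Tmem119 and Trem2 turned to -0.020, -0.23 and -0.11 (-0.0085, -0.27 and -0.15 with offsets for genomic span). With the block edgeR called 0 members, as without it. With replicates 2 and 3 of both groups, Cx3cr1, Gpr34, Aif1 and Itgam turned to 0.10, 0.17, 0.29 and -0.039. With DESeq2 on both strands without Snhg11-ASO replicate 1, P2ry12, Cx3cr1, Csf1r, Fcrls, Gpr34 and Aif1 turned to 0.23, 0.24, 0.039, 0.32, 0.49 and 0.27. Without replicate 2 instead, P2ry13, Tmem119, Fcrls and Trem2 turned to -0.17, -0.26, 0.043 and -0.063, and without replicate 3, P2ry13, Tmem119, Trem2, Cst7 and Ctsd to -0.10, -0.21, -0.26, -0.10 and -0.0025. Leaving out each replicate in edgeR, the log2 fold changes ran from -0.72 to 0.24 for P2ry12, -0.10 to 0.67 for P2ry13, -0.27 to 0.53 for Tmem119, -0.54 to 0.25 for Cx3cr1, -0.51 to 0.029 for Csf1r, -0.16 to 0.065 for Sall1, -1.13 to 0.39 for Fcrls, -0.73 to 0.52 for Gpr34, -0.66 to 0.26 for Aif1, -0.26 to 0.63 for Trem2, -0.38 to 0.80 for Cst7 and -0.11 to 0.61 for Ctsd. The low counts of Cst7, Itgax and Clec7a limit what can be detected for them at this depth.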
